A study of Homo sapiens with 9 samples.

Results

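The 10 genes described here encode the ERBB receptors EGFR, ERBB2 and ERBB3, the receptor tyrosine kinase MET, and 6 ligands of the ERBB family, AREG, EREG, TGFA, HBEGF, BTC and NRG1. They were taken by gene symbol from a table of 25886 symbols, in which all 10 were present. RNA depleted of rRNA was sequenced from cells that carry the label HT29, the name of a human line from colorectal cancer, in 3 libraries each of DNMT1 knockdown, DNMT3B knockdown and Control cells. Both knockdowns were stable and made with lentiviruses, the count table names the Control columns shCTR, and all 3 groups are labelled as selected with puromycin. Neither the knockdown sequences nor whether a line was a clone or a pool is given in the sources used here. DNMT1 maintains DNA methylation at replication, and DNMT3B can add it to unmethylated DNA. The labels do not state if replicates came from separate cultures, so the spread behind each p-value is that of the libraries as sequenced and may be technical.

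EGF-family ligands are made as membrane-anchored precursors, cut free by metalloproteases, and bind ERBB receptors, which then pair and phosphorylate each other. The paired receptors recruit adaptors that switch on RAS, RAF, MEK and ERK and PI3-kinase, and they are then silenced by ubiquitin ligases, phosphatases and sorting to lysosomes. MET is activated by hepatocyte growth factor (HGF) and uses many of the same adaptors. In colorectal cancer EGFR is the target of therapeutic antibodies, AREG and EREG are known as markers of EGFR dependence, and raised MET is a known route around EGFR blockade.

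Libraries held 23.4 to 24.2 M counts (M, 1e6) with DNMT1 knockdown, 18.8 to 26.0 M with DNMT3B knockdown and 26.9 to 33.7 M in Control. The targeted genes were lower in their own knockdowns. DNMT1 averaged 252 ± 4.68 CPM (counts scaled to a library of 1e6) in DNMT1 knockdown and 458 ± 10.3 CPM in Control libraries (SD, n = 3 each; adjusted p = 2.83e-20). DNMT3B averaged 30.5 ± 2.45 CPM in DNMT3B knockdown and 61.3 ± 1.17 CPM in Control libraries (adjusted p = 1.49e-17), and DNMT3A, the other de novo methyltransferase, was lower there too (-0.54 ± 0.052, adjusted p = 4.07e-10). Of 13 colorectal epithelial markers, KRT8, KRT18, KRT19, EPCAM, CDH1 and CDX2 were expressed, CDX2 lowest with a Control mean of 38.2 CPM. Other markers of that list were low in all groups, with group means of CDX1, CEACAM5 and CEACAM6 of at most 0.0142, 0.0307 and 0.0136 CPM, and of LGALS4, GPA33, VIL1 and KRT20 of at most 0.295, 0.259, 0.905 and 2.02 CPM. These low levels go against what the label HT29 would lead one to look for in a colorectal line, and the identity of the line was not tested. The 8 leukocyte markers summed to 21.7 to 22.7 CPM with DNMT1 knockdown, 34.4 to 39.6 CPM with DNMT3B knockdown and 21.1 to 21.9 CPM in Control, mostly CD68, while the group means of PTPRC were at most 0.148 CPM. The 7 stromal markers summed to 25.5 to 29.8, 33.6 to 36.2 and 21.4 to 25.1 CPM in the same order of groups, mostly COL1A1, with COL1A2 and DCN at 0 in every library. The 5 endothelial markers summed to 2.23 to 2.53, 4.40 to 5.12 and 2.89 to 3.39 CPM. These sums were highest with DNMT3B knockdown, and their part in the results below was not tested.

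Every level below is in CPM, with library sizes scaled by TMM. Tests are edgeR quasi-likelihood tests fitted to all 16660 genes that passed the low-count filter, a call means a p below 0.05 after Benjamini-Hochberg adjustment across these genes, and each log2 fold change is followed by ± its standard error. Of the 10 genes, 9 passed the filter and NRG1 did not. With DNMT1 knockdown 8 of the 9 were called against Control, 5 higher and 3 lower, where 41.8% of all tested genes were called, 21% higher and 20.8% lower. With DNMT3B knockdown 4 of the 9 were called against Control, 2 higher and 2 lower, near the background of 47.7% of all tested genes, 23.1% higher and 24.6% lower. The knockdown comparisons share the Control libraries. The 10 genes were chosen with earlier results of these data known. Their counts of calls, here and between the knockdowns, are thus a description and not a test of the family.

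MET, the HGF receptor (ENSG00000105976, chromosome 7, 116672390 to 116798386, plus strand, GRCh38), was higher in both knockdowns, with the largest change of the 9 tested genes in each comparison with Control. MET stood at 314, 298 and 299 CPM in DNMT1 knockdown libraries, at 338, 329.5 and 319 CPM in DNMT3B knockdown libraries, and at 188, 185 and 182 CPM in Control libraries. Every knockdown library lay above every Control library. MET rose 1.64-fold with DNMT1 knockdown (log2 fold change 0.72 ± 0.034, adjusted p = 1.42e-17) and 1.78-fold with DNMT3B knockdown (0.83 ± 0.034, adjusted p = 3.91e-19). Set directly against DNMT3B knockdown, MET was slightly lower with DNMT1 knockdown (-0.11 ± 0.0335, adjusted p = 0.00601).

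EGFR (ENSG00000146648, chromosome 7, 55019021 to 55211628, plus strand), the receptor that binds AREG, EREG, TGFA, HBEGF and BTC, moved in opposite directions in the knockdowns. EGFR had 258, 254 and 259 CPM in DNMT1 knockdown libraries, 161, 154 and 157 CPM in DNMT3B knockdown libraries, and 221, 223 and 211 CPM in Control libraries. The 3 groups did not overlap. EGFR rose 1.18-fold with DNMT1 knockdown (0.24 ± 0.033, adjusted p = 7.02e-07) and was 1.39-fold lower with DNMT3B knockdown (-0.47 ± 0.0339, adjusted p = 5e-13). It was 1.63-fold higher in DNMT1 than in DNMT3B knockdown libraries (0.71 ± 0.0341, adjusted p = 3.21e-17), the largest difference between the knockdowns among the 9 genes. EGFR-AS1, annotated over EGFR on the opposite strand, had 72 to 133 counts per library beside 2856 to 7402 for EGFR. It was higher in DNMT1 than in DNMT3B knockdown libraries (0.51 ± 0.122, adjusted p = 0.000885). Against Control EGFR-AS1 was called in neither knockdown (adjusted p = 0.0519 and 0.0961). Whether counting used strand is not given in the sources used here, so reads of this pair cannot be told apart.

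The promoter windows of EGFR and MET are shown because the depleted enzymes methylate CG dinucleotides. Each runs from 250 bases before to 50 bases after the RefSeq start (GRCh38.p14), EGFR at chr7:55018767-55019066 and MET at chr7:116671946-116672245, both on the plus strand, printed 5′ to 3′ with each CG in capitals.
EGFR: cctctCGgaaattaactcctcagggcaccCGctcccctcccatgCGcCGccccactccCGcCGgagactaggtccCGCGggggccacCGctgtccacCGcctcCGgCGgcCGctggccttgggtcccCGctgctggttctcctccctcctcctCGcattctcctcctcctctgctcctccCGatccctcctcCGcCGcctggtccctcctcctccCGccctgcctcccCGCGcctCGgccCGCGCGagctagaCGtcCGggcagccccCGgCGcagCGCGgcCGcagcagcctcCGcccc
MET: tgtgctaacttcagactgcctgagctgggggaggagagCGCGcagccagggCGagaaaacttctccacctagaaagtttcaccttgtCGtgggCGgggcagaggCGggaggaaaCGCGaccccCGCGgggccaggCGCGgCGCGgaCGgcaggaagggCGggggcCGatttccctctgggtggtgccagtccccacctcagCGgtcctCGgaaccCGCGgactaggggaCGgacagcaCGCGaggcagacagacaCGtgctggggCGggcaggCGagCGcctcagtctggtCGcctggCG
The EGFR window holds 33 CG dinucleotides and the MET window 30. The median of 35116 RefSeq windows of this length is 14 and the upper quartile 28. Of these windows 82.8% hold fewer than EGFR and 77.6% fewer than MET. HBEGF holds 38, TGFA 30 and 22 in its 2 windows, AREG 27, ERBB2 24, EREG 12, BTC 12, and a second window inside EGFR 1. Windows are given here for 8 of the 10 genes, and those of ERBB3 and NRG1 are left out. The MET window ends before the start of MET given above (116672390), which comes from another annotation, GENCODE. DNA methylation was not measured in these libraries.

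ERBB2 (ENSG00000141736, chromosome 17, 39687914 to 39730426, plus strand), the receptor with no known ligand that pairs with the other ERBB receptors, was higher with DNMT1 knockdown. ERBB2 had 161, 165 and 166 CPM in DNMT1 knockdown libraries, 142, 137 and 140.4 CPM in DNMT3B knockdown libraries, and 144, 149 and 147 CPM in Control libraries. The groups did not overlap, and DNMT3B knockdown lay just below Control. ERBB2 rose 1.12-fold with DNMT1 knockdown (0.16 ± 0.0331, adjusted p = 0.000193), and with DNMT3B knockdown its log2 fold change was -0.07 ± 0.0336 (95% interval -0.14 to -0.0029, adjusted p = 0.0796). PGAP3 and MIEN1 are annotated over part of ERBB2 on the opposite strand. PGAP3, at 193 to 415 counts per library, was higher with DNMT1 knockdown (0.19 ± 0.0665, adjusted p = 0.0206) and lower with DNMT3B knockdown (-0.20 ± 0.0708, adjusted p = 0.0192), and MIEN1 was called in neither (adjusted p = 0.668 and 0.253).

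ERBB3 (ENSG00000065361, chromosome 12, 56076799 to 56103505, plus strand), the neuregulin receptor with a weak kinase that recruits PI3-kinase, was lower with DNMT3B knockdown. ERBB3 had 74.5, 79.7 and 78.2 CPM in DNMT1 knockdown libraries, 65.2, 64.7 and 62.7 CPM in DNMT3B knockdown libraries, and 74.6, 73.4 and 74.2 CPM in Control libraries. The DNMT3B knockdown libraries lay below all others, while DNMT1 knockdown and Control overlapped. ERBB3 was 1.15-fold lower with DNMT3B knockdown (-0.21 ± 0.0388, adjusted p = 4.48e-05), and its log2 fold change with DNMT1 knockdown was 0.06 ± 0.0378 (95% interval -0.01 to 0.14, adjusted p = 0.177).

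**Figure D1:**
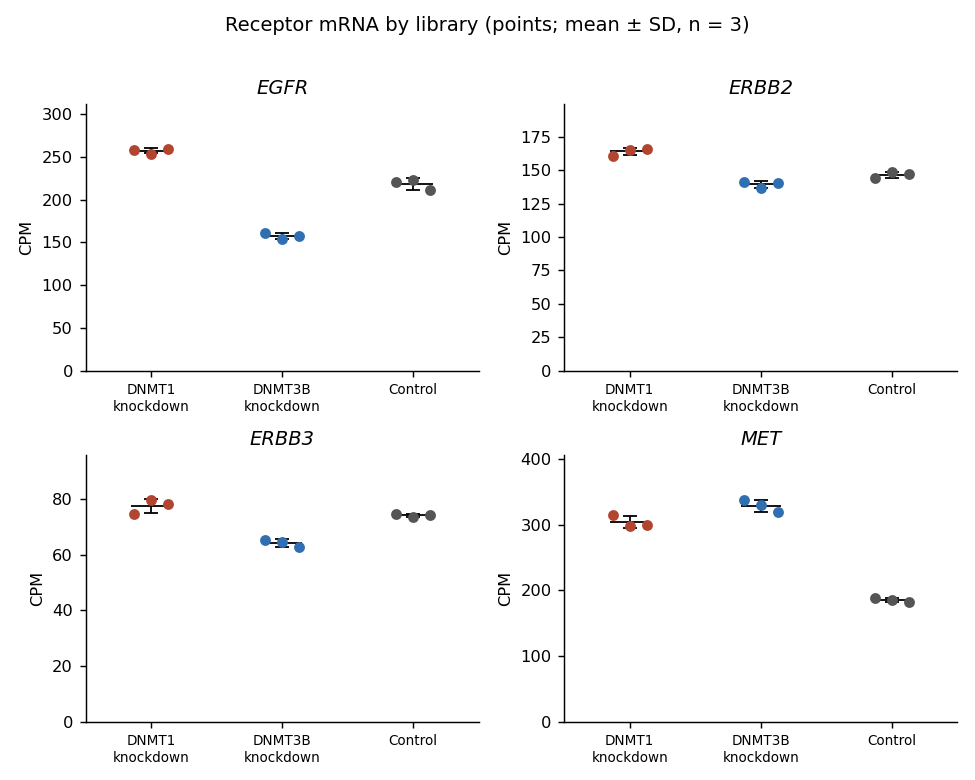
Receptor mRNA in CPM (vertical axes, from 0) for each library, by group; points are libraries and bars the mean ± SD of 3. MET is higher in both knockdowns than in Control, while EGFR is highest with DNMT1 knockdown and lowest with DNMT3B knockdown.

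Among the ligands, EREG (epiregulin, ENSG00000124882, chromosome 4, 74365143 to 74388751, plus strand) was the most abundant and fell with DNMT1 knockdown. EREG had 377, 363 and 359.8 CPM in DNMT1 knockdown libraries, 478, 511 and 507 CPM in DNMT3B knockdown libraries, and 489.8, 462 and 479.9 CPM in Control libraries. The DNMT1 knockdown libraries lay below all others, while DNMT3B knockdown and Control overlapped. EREG was 1.3-fold lower with DNMT1 knockdown (-0.38 ± 0.0348, adjusted p = 1.63e-10). With DNMT3B knockdown its log2 fold change was 0.06 ± 0.0346 (95% interval -0.01 to 0.13, adjusted p = 0.133), and without DNMT3B knockdown replicate 1 it was called (0.10, adjusted p = 0.0304).

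AREG (amphiregulin, ENSG00000109321, chromosome 4, 74445134 to 74455009, plus strand), encoded downstream of EREG, was higher in both knockdowns. AREG had 61.6, 59.7 and 61.5 CPM in DNMT1 knockdown libraries, 84.0, 82.7 and 84.0 CPM in DNMT3B knockdown libraries, and 53.1, 50.4 and 53.4 CPM in Control libraries. The groups did not overlap, with DNMT3B knockdown highest. AREG rose 1.16-fold with DNMT1 knockdown (0.22 ± 0.0398, adjusted p = 4.1e-05) and 1.6-fold with DNMT3B knockdown (0.68 ± 0.0387, adjusted p = 1.83e-15).

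TGFA and HBEGF, which encode the EGFR ligands transforming growth factor alpha and heparin-binding EGF, fell with DNMT1 knockdown. TGFA (ENSG00000163235, chromosome 2, 70447280 to 70554193, minus strand) had 39.6, 42.7 and 42.7 CPM in DNMT1 knockdown libraries, 46.6, 47.9 and 47.0 CPM in DNMT3B knockdown libraries, and 47.7, 45.1 and 46.5 CPM in Control libraries. HBEGF (ENSG00000113070, chromosome 5, 140332843 to 140346631, minus strand) had 6.89, 6.44 and 5.65 CPM in DNMT1 knockdown libraries, 8.35, 8.08 and 7.97 CPM in DNMT3B knockdown libraries, and 8.14, 8.23 and 8.96 CPM in Control libraries. For both genes every DNMT1 knockdown library lay below every other library, and DNMT3B knockdown and Control overlapped. TGFA was 1.12-fold lower (-0.16 ± 0.0443, adjusted p = 0.00443) and HBEGF 1.33-fold lower (-0.42 ± 0.0889, adjusted p = 0.000313) with DNMT1 knockdown. With DNMT3B knockdown TGFA was at 0.02 ± 0.0439 (95% interval -0.07 to 0.11, adjusted p = 0.731) and HBEGF at -0.05 ± 0.085 (95% interval -0.23 to 0.12, adjusted p = 0.628).

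BTC (betacellulin, ENSG00000174808, chromosome 4, 74744759 to 74794686, minus strand), a ligand of EGFR and ERBB4, was low in all groups. BTC had 4.66, 3.88 and 4.20 CPM in DNMT1 knockdown libraries, 3.64, 3.99 and 4.25 CPM in DNMT3B knockdown libraries, and 3.22, 3.46 and 3.40 CPM in Control libraries. Every knockdown library lay above every Control library, and the knockdowns overlapped. BTC was called 1.27-fold higher with DNMT1 knockdown (0.34 ± 0.117, adjusted p = 0.0185), but the call was lost without DNMT1 knockdown replicate 1 (adjusted p = 0.104), without Control replicate 1 (adjusted p = 0.0646) and with DESeq2 (adjusted p = 0.109). With DNMT3B knockdown its log2 fold change was 0.24 ± 0.12 (95% interval -0.0035 to 0.48, adjusted p = 0.0979).

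NRG1 (neuregulin 1, ENSG00000157168, chromosome 8), a ligand of ERBB3 and ERBB4, was close to the detection limit. NRG1 had 5, 1 and 1 counts in DNMT1 knockdown libraries, 3, 4 and 5 counts in DNMT3B knockdown libraries, and 0, 2 and 0 counts in Control libraries. Summed and adjusted for depth, the ratio to Control was 4.46-fold (exact 95% counting interval 0.850 to 44.0) with DNMT1 knockdown and 7.95-fold (exact 95% counting interval 1.77 to 73.1) with DNMT3B knockdown. These intervals cover counting error only. With no low-count filter edgeR called the DNMT3B knockdown difference (adjusted p = 0.0133) and not the DNMT1 knockdown one (adjusted p = 0.174).

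**Figure D2:**
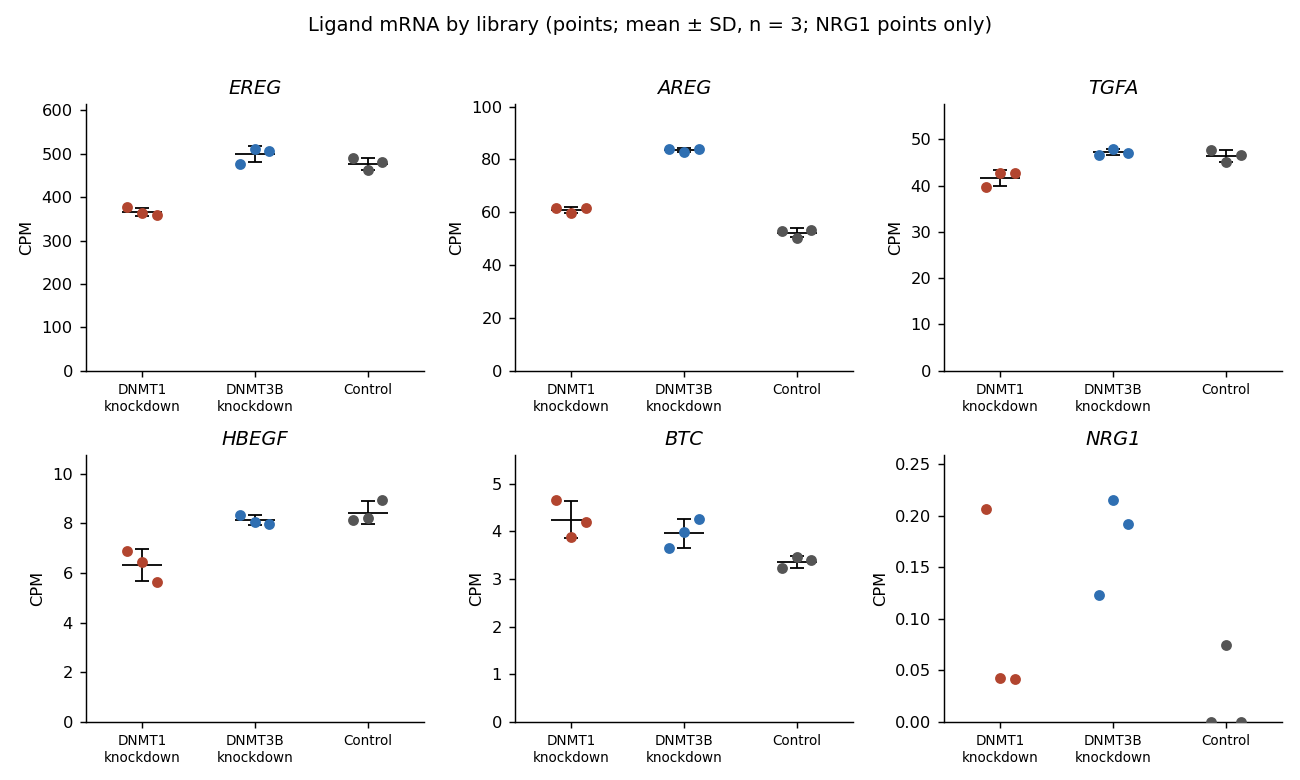
Ligand mRNA in CPM (vertical axes, from 0) for each library, by group; points are libraries and bars the mean ± SD of 3, with points only for NRG1. EREG, TGFA and HBEGF are lowest with DNMT1 knockdown, and AREG is highest with DNMT3B knockdown.

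In DNMT1 against DNMT3B knockdown 8 of the 9 tested genes were called, 3 higher and 5 lower, where 45.2% of all tested genes were called, 24.3% higher and 20.9% lower. The 3 higher were EGFR, ERBB2 (0.23 ± 0.0338, adjusted p = 1e-06) and ERBB3 (0.27 ± 0.0395, adjusted p = 1.03e-06). The 5 lower were MET and the ligands AREG (-0.46 ± 0.0391, adjusted p = 2.75e-11), EREG (-0.44 ± 0.035, adjusted p = 4.23e-12), HBEGF (-0.36 ± 0.0943, adjusted p = 0.00211) and TGFA (-0.18 ± 0.0458, adjusted p = 0.00179). BTC was not called (0.10 ± 0.119, 95% interval -0.14 to 0.34, adjusted p = 0.523). The ERBB receptors thus stood higher, and 4 EGFR ligands lower, with DNMT1 than with DNMT3B knockdown. The median log2 fold change of the 9 genes was 0.16 with DNMT1 knockdown, 0.02 with DNMT3B knockdown and -0.11 between the knockdowns, beside medians within 0.01 of 0 over all tested genes.

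**Figure D3:**
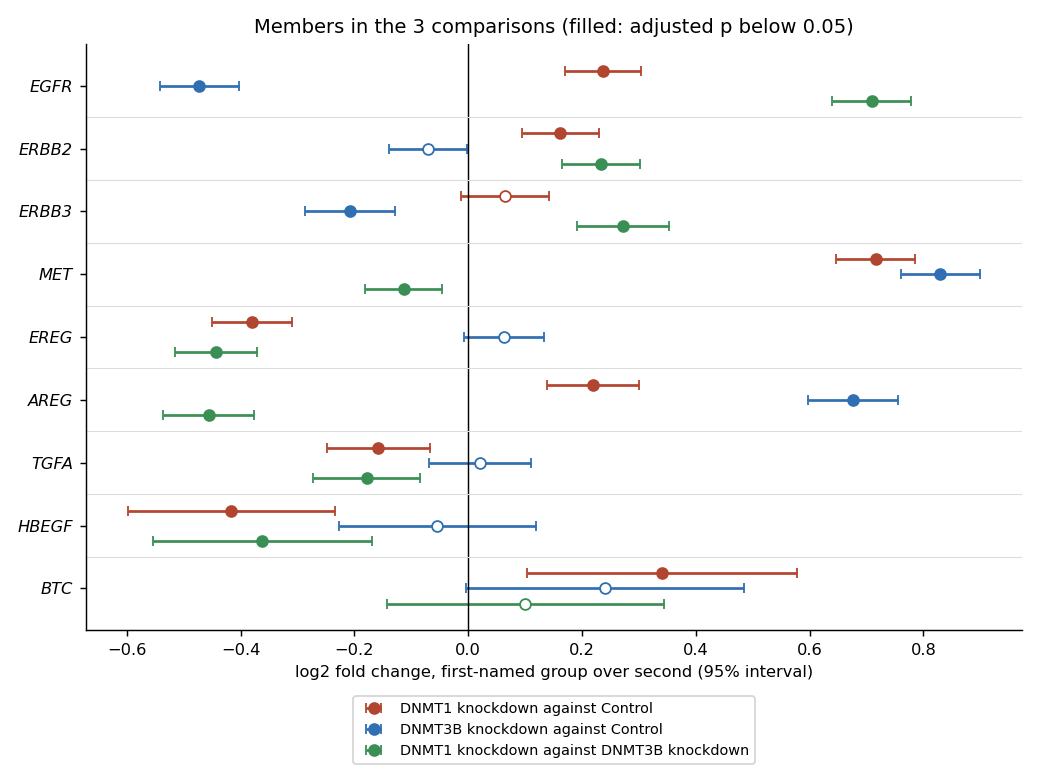
Log2 fold change (horizontal axis) with its 95% interval for the 9 tested genes in the 3 comparisons; filled points passed the threshold. MET lies right of 0 in both comparisons with Control, at 0.72 and 0.83, and EGFR lies on opposite sides, at 0.24 and -0.47.

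Levels of different genes were set side by side per kilobase of annotated exon, and on that scale EREG led in every group. EREG averaged 64.1 ± 1.58 CPM per kb with DNMT1 knockdown, 87.2 ± 3.24 with DNMT3B knockdown and 83.5 ± 2.47 in Control (SD, n = 3 each). In Control the order went on with AREG (31.7 ± 0.996), MET (26.3 ± 0.426), EGFR (17.4 ± 0.522), ERBB2 (14.2 ± 0.212), TGFA (9.36 ± 0.261), ERBB3 (8.19 ± 0.0666), HBEGF (2.80 ± 0.148) and BTC (1.19 ± 0.0448) CPM per kb, with NRG1 last, and no neighbours overlapped. With DNMT1 knockdown MET (43.2 ± 1.28) stood above AREG (37.0 ± 0.632), and ERBB3 (8.57 ± 0.292) and TGFA (8.39 ± 0.362) overlapped. With DNMT3B knockdown AREG (50.7 ± 0.468) stood above MET (46.7 ± 1.32), and ERBB2 (13.5 ± 0.247) above EGFR (12.6 ± 0.275). Parts of this order rest on the length used. With the longest transcript in place of all exons, ERBB2 stood above EGFR in every group and, in Control, above MET (29.8 and 27.9 CPM per kb). On that length ERBB3 stood above TGFA with DNMT1 knockdown (13.1 and 9.66) and in Control (12.5 and 10.8), and AREG stood above MET with DNMT1 knockdown (49.1 and 45.8). Shares were taken of the summed per-kb level of EREG, AREG, TGFA, HBEGF and BTC, without EPGN and other ligands. EREG made up 56.1 to 57.2% in DNMT1 knockdown libraries, 56.5 to 58.3% in DNMT3B knockdown libraries and 64.6 to 65.2% in Control libraries. AREG made up 32.4 to 33.2%, 32.7 to 34.5% and 24.5 to 24.9% in the same order of groups.

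Ratios of counts within a library do not depend on how libraries are scaled, and 6 such ratios were chosen after the values had been seen. MET counts per EGFR count were 1.22, 1.17 and 1.15 in DNMT1 knockdown libraries, 2.10, 2.14 and 2.03 in DNMT3B knockdown libraries, and 0.851, 0.827 and 0.862 in Control libraries. AREG counts per EREG count were 0.163, 0.164 and 0.171 with DNMT1 knockdown, 0.176, 0.162 and 0.166 with DNMT3B knockdown, and 0.108, 0.109 and 0.111 in Control. The AREG to EREG ratio was 1.52-fold higher with DNMT1 knockdown and 1.53-fold higher with DNMT3B knockdown than in Control, and the knockdowns overlapped. Each of these 4 differences from Control had an exact two-sided permutation p of 0.1, the smallest possible with 3 against 3 libraries (0.129 after Benjamini-Hochberg adjustment over 18 tests). For AREG to EREG between the knockdowns the exact permutation p was 0.8. EGFR counts per ERBB2 count averaged 1.57 ± 0.0356 with DNMT1 knockdown, 1.13 ± 0.00698 with DNMT3B knockdown and 1.49 ± 0.0484 in Control (SD, n = 3 each). ERBB3 counts per ERBB2 count averaged 0.472 ± 0.00937, 0.460 ± 0.0133 and 0.505 ± 0.0115, and TGFA counts per EREG count 0.114 ± 0.00756, 0.0946 ± 0.00261 and 0.0973 ± 0.000368, in the same order.

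**Figure D4:**
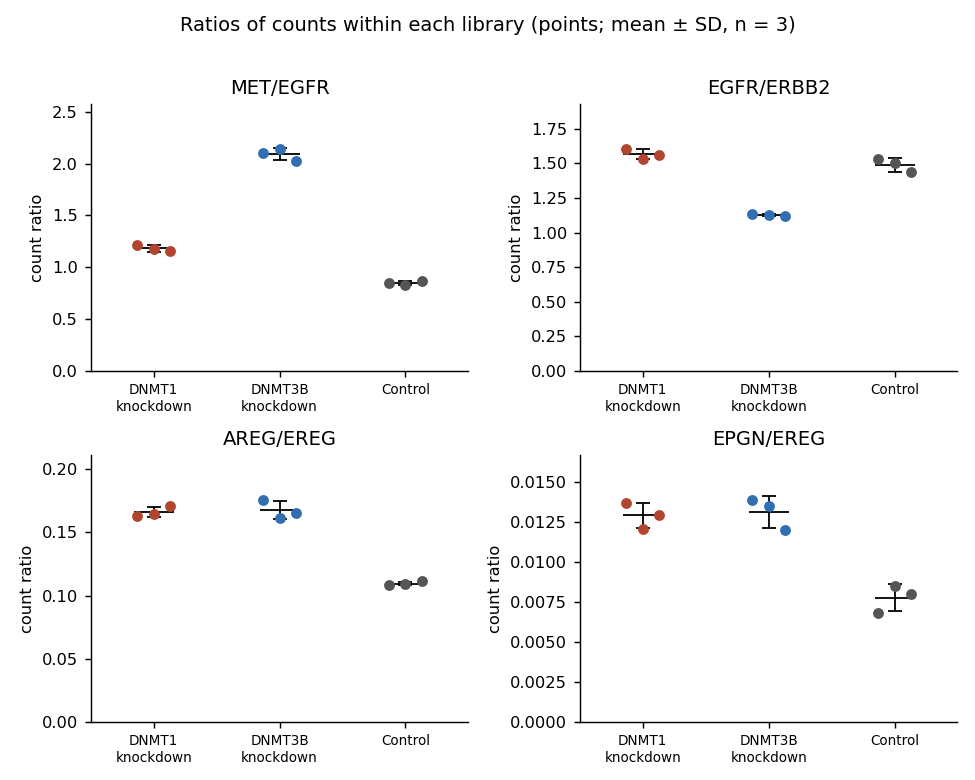
Ratios of raw counts within each library (vertical axes, from 0), by group; points are libraries and bars the mean ± SD of 3. The MET to EGFR ratio is highest with DNMT3B knockdown, and the AREG to EREG ratio overlaps between the knockdowns and is lower in Control.

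EPGN (epigen, ENSG00000182585, chromosome 4, 74308473 to 74315307, plus strand), another EGFR ligand, lies on the other side of EREG from AREG, and all 3 genes are read from the plus strand. EPGN had 5.16, 4.39 and 4.65 CPM in DNMT1 knockdown libraries, 6.63, 6.89 and 6.09 CPM in DNMT3B knockdown libraries, and 3.34, 3.91 and 3.82 CPM in Control libraries. It rose with DNMT1 knockdown (0.37 ± 0.113, adjusted p = 0.00919) and with DNMT3B knockdown (0.82 ± 0.106, adjusted p = 1.21e-07), without overlap between groups. Between the knockdowns EPGN differed by -0.46 ± 0.106, adjusted p = 0.000677, beside log2 differences of -0.44 for EREG and -0.46 for AREG. EPGN counts per EREG count averaged 0.0129 ± 0.000803 with DNMT1 knockdown, 0.0131 ± 0.000988 with DNMT3B knockdown and 0.00775 ± 0.000843 in Control. Of the tested genes next to the cluster, MTHFD2L was called in neither comparison with Control (adjusted p = 0.473 and 0.0852). The chemokine gene CXCL2 was called higher with DNMT3B knockdown (0.57 ± 0.192, adjusted p = 0.015) and not with DNMT1 knockdown (0.16 ± 0.204, adjusted p = 0.57). Beyond BTC, PARM1 was higher with DNMT1 knockdown (0.25 ± 0.0461, adjusted p = 3.98e-05), RCHY1 was higher with DNMT3B knockdown (0.20 ± 0.0521, adjusted p = 0.00183), and LINC02562 was called in neither (adjusted p = 0.169 and 0.849). With DNMT1 against DNMT3B knockdown RCHY1 was lower (-0.23 ± 0.0541, adjusted p = 0.000693) and PARM1 higher (0.17 ± 0.0475, adjusted p = 0.00396). CXCL2, MTHFD2L and LINC02562 were not called there (adjusted p = 0.0953, 0.393 and 0.281).

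The promoter windows of EPGN, EREG and AREG are shown because these adjacent genes differed by nearly the same factor between the knockdowns. Against Control EREG did not follow EPGN and AREG, and a shared cause was not tested. Each runs from 250 bases before to 50 bases after the RefSeq start on the plus strand (GRCh38.p14), EPGN at chr4:74308220-74308519, EREG at chr4:74364895-74365194 and AREG at chr4:74444886-74445185. Capitals mark matches, on either strand, to 5 motifs. The cyclic AMP response element was searched as TGACGTCA. An AP-1 site was searched as TGACTCA. The letters of a GC box were GGGCGG. Those of a TATA box were TATAAA, and a CCAAT box was searched by the letters of its name.
EPGN: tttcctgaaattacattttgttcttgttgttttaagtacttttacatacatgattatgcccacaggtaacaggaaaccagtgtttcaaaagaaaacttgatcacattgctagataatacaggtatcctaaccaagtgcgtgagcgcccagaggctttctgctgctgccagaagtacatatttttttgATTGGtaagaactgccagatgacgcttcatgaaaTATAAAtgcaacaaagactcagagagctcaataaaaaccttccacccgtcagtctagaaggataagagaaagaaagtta
EREG: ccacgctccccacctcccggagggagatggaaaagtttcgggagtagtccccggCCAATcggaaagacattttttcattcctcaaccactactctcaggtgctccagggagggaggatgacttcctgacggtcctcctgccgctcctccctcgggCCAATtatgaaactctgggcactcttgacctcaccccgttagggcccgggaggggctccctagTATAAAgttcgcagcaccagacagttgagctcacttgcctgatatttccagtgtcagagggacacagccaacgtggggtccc
AREG: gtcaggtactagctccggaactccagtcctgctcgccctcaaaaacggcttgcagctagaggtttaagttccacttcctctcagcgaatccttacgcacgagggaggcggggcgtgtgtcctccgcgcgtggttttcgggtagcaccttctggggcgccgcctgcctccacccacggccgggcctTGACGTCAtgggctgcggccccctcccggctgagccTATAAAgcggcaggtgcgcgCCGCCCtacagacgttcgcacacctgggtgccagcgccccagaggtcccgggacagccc
A TATA box match stands in all 3 windows, at -29 in EPGN and AREG and at -32 in EREG relative to the start, and 11.5% of the 35116 windows hold one. AREG holds the cyclic AMP response element, at -65, as do 1.85% of all windows, and 1 GC box, at -9, where 45% of windows hold at least 1. EREG has 2 CCAAT matches and EPGN 1, where 34.6% of windows hold at least 1. The AP-1 letters, found in 4.95% of windows, are in none of these 3. A match describes letters in the window, not binding.

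Of 9 further receptors and ligands of these families, 6 passed the filter. ERBB4 had 4, 3 and 1 counts and HGF 1, 1 and 1 counts, summed over the 3 libraries of DNMT1 knockdown, DNMT3B knockdown and Control. NRG3 had 0 in all, and 3 counts over a group, taken as the limit that a count of 0 allows, would be 0.0418, 0.0434 and 0.0328 CPM in the same order. MST1R, a receptor of the MET family, averaged 66.6 ± 4.48 CPM with DNMT1 knockdown, 65.8 ± 1.9 CPM with DNMT3B knockdown and 57.7 ± 2.77 CPM in Control, higher in both (adjusted p = 0.000539 and 0.00122). MST1, which encodes its ligand, was lower in both (-0.21 ± 0.0581, adjusted p = 0.00353, and -0.32 ± 0.0593, adjusted p = 4.69e-05). NRG4, an ERBB4 ligand, was called higher with DNMT3B knockdown (0.44 ± 0.145, adjusted p = 0.012) and not with DNMT1 knockdown (0.33 ± 0.146, adjusted p = 0.0706). NRG2 and EGF were called in no comparison.

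The lists that follow were named for their roles, and their counts are read beside the shares of all genes called given above. They too were chosen with earlier results of these data known, so their counts are a description and not a test. Some lists mix genes of opposite roles, such as proteases and their inhibitors, so their counts and medians give no direction for a process. Of 11 genes for ligand shedding, 5 rose and 1 fell with DNMT1 knockdown (median log2 fold change 0.07), and 2 rose and 4 fell with DNMT3B knockdown (median -0.06). ADAM19, a metalloprotease that sheds neuregulin in mouse cells, had 221, 229 and 229 CPM in DNMT1 knockdown libraries, 90.9, 88.0 and 87.1 CPM in DNMT3B knockdown libraries, and 78.3, 79.4 and 78.0 CPM in Control libraries. ADAM19 rose 2.88-fold with DNMT1 knockdown (1.53 ± 0.0343, adjusted p = 1.69e-26) and 1.13-fold with DNMT3B knockdown (adjusted p = 0.000172). RHBDF2, which helps ADAM17 mature, rose with DNMT1 knockdown (0.22 ± 0.0391, adjusted p = 3.28e-05), as did ADAM12 (0.76 ± 0.15, adjusted p = 0.000133). ADAM10, a sheddase of BTC, fell in both (-0.12 ± 0.0354, adjusted p = 0.00626, and -0.27 ± 0.0359, adjusted p = 1.5e-07), and ADAM9 fell with DNMT3B knockdown (-0.37 ± 0.0335, adjusted p = 9.87e-11). ADAM17, the main sheddase of AREG, EREG, TGFA and HBEGF, is named for that role: it was at -0.05 with DNMT1 knockdown (adjusted p = 0.296) and fell with DNMT3B knockdown (-0.12 ± 0.0408, adjusted p = 0.0123).

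Of 8 genes for HGF processing 7 were tested, and 1 rose and 4 fell with DNMT1 knockdown (median -0.20), while 0 rose and 4 fell with DNMT3B knockdown (median -0.22). SPINT2, an inhibitor of the proteases that activate HGF, had 174, 176 and 164 CPM in DNMT1 knockdown libraries, 134, 164 and 148 CPM in DNMT3B knockdown libraries, and 217, 199 and 222 CPM in Control libraries. Every knockdown library lay below every Control library, and SPINT2 fell in both (-0.31 ± 0.0468, adjusted p = 2.42e-06, and -0.52 ± 0.0475, adjusted p = 9.88e-11). PLAU, the urokinase gene, fell in both as well (-0.36 ± 0.047, adjusted p = 2.13e-07, and -0.19 ± 0.0466, adjusted p = 0.000932). So did F12, which encodes coagulation factor XII (-0.20 ± 0.0559, adjusted p = 0.00502, and -0.38 ± 0.0576, adjusted p = 2.11e-06). The protease gene TMPRSS13 fell with DNMT1 knockdown (-0.74 ± 0.101, adjusted p = 5.1e-07), and with DNMT3B knockdown it was at -0.22 ± 0.0945 (adjusted p = 0.0556). HGFAC, the HGF activator gene, averaged 1.26 CPM with DNMT1 knockdown and 0.445 CPM with DNMT3B knockdown (1.52 ± 0.298, adjusted p = 8.92e-05).

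Of 22 adaptor genes 9 rose and 7 fell with DNMT1 knockdown, 5 rose and 10 fell with DNMT3B knockdown, and 14 were higher and 4 lower with DNMT1 than with DNMT3B knockdown (median 0.20). SHC1, which couples EGFR to GRB2, rose with DNMT1 knockdown (0.16 ± 0.0316, adjusted p = 0.000129) and fell with DNMT3B knockdown (-0.36 ± 0.0324, adjusted p = 6.99e-11). PIK3R1, a regulatory subunit of PI3-kinase, did likewise (0.24 ± 0.0457, adjusted p = 7.52e-05, and -0.25 ± 0.0485, adjusted p = 7.19e-05). GRB2, the adaptor that brings SOS to the receptors, fell in both (-0.21 ± 0.0319, adjusted p = 4.11e-06, and -0.21 ± 0.032, adjusted p = 2.11e-06), and PIK3R2, another PI3-kinase subunit, rose in both (0.39 ± 0.0349, adjusted p = 1.01e-10, and 0.38 ± 0.035, adjusted p = 1.77e-10). GRB7, an ERBB2 adaptor, rose with DNMT1 knockdown (0.32 ± 0.0529, adjusted p = 1.26e-05). GRB10 fell in both (-0.23 ± 0.042, adjusted p = 5.64e-05, and -0.53 ± 0.0434, adjusted p = 1.07e-11), as did CRK (-0.16 ± 0.0349, adjusted p = 0.000454, and -0.40 ± 0.0355, adjusted p = 6.66e-11), and CRKL was lower in DNMT1 than in DNMT3B knockdown (-0.27 ± 0.0333, adjusted p = 4.7e-08).

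In the RAS, RAF, MEK and ERK list of 14 genes 1 rose and 7 fell with DNMT1 knockdown (median -0.10), and 3 rose and 4 fell with DNMT3B knockdown (median -0.02). MAP2K1, the MEK1 gene (-0.22 ± 0.0408, adjusted p = 5.47e-05), NRAS (-0.20 ± 0.0368, adjusted p = 6.42e-05) and HRAS (-0.26 ± 0.0509, adjusted p = 0.00013) fell with DNMT1 knockdown. HRAS fell with DNMT3B knockdown too (-0.32 ± 0.0516, adjusted p = 4.91e-06), as did SHOC2, a scaffold of RAF activation (-0.48 ± 0.0472, adjusted p = 5.81e-10). MAPK3, the ERK1 gene, was lower in DNMT1 than in DNMT3B knockdown (-0.32 ± 0.0414, adjusted p = 1.69e-07). BRAF, named for its part in colorectal cancer, was called in none of the 3 comparisons.

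The list named for receptor restraint held 15 genes, and not every product acts only as a restraint. Of these genes 6 rose and 2 fell with DNMT1 knockdown, and 4 rose and 7 fell with DNMT3B knockdown. With DNMT1 than with DNMT3B knockdown 11 were higher and 2 lower (median 0.21). RNF41, a ubiquitin ligase for ERBB3, had 60.1, 60.6 and 58.7 CPM in DNMT1 knockdown libraries, 40.4, 40.0 and 41.0 CPM in DNMT3B knockdown libraries, and 59.6, 62.9 and 63.0 CPM in Control libraries. It was 1.53-fold lower with DNMT3B knockdown (-0.61 ± 0.0421, adjusted p = 1.84e-13), with every library below all others. SOCS5, which promotes EGFR degradation, fell there too (-0.45 ± 0.0479, adjusted p = 2.81e-09), and the phosphatase gene PTPN1 rose (0.28 ± 0.0354, adjusted p = 6.24e-08). The ubiquitin ligase gene CBLB rose in both (0.48 ± 0.0539, adjusted p = 1.14e-08, and 0.19 ± 0.0561, adjusted p = 0.00668), as did UBASH3B (0.36 ± 0.0506, adjusted p = 6.85e-07, and 0.15 ± 0.0521, adjusted p = 0.015). SH3KBP1, which encodes a partner of CBL proteins, rose with DNMT1 knockdown (0.30 ± 0.0374, adjusted p = 1.07e-07). PTPN12, another phosphatase gene, was higher in DNMT1 than in DNMT3B knockdown (0.31 ± 0.0387, adjusted p = 6.74e-08).

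Of 14 genes for receptor sorting 3 rose and 2 fell with DNMT1 knockdown, and 4 rose and 6 fell with DNMT3B knockdown. RAB11A, of the recycling endosome, rose with DNMT1 knockdown (0.14 ± 0.0331, adjusted p = 0.000987) and fell with DNMT3B knockdown (-0.26 ± 0.0339, adjusted p = 1.86e-07). EHD1, also of recycling, rose in both (0.19 ± 0.0415, adjusted p = 0.000514, and 0.44 ± 0.041, adjusted p = 1.88e-10), as did SNX1, of the retromer (0.29 ± 0.0356, adjusted p = 6.06e-08, and 0.13 ± 0.0361, adjusted p = 0.00306). RAB7A, of late endosomes, rose with DNMT3B knockdown (0.21 ± 0.0326, adjusted p = 3.69e-06), and RAB5A, of early endosomes, was lower in DNMT1 than in DNMT3B knockdown (-0.24 ± 0.0466, adjusted p = 6.96e-05).

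**Figure D5:**
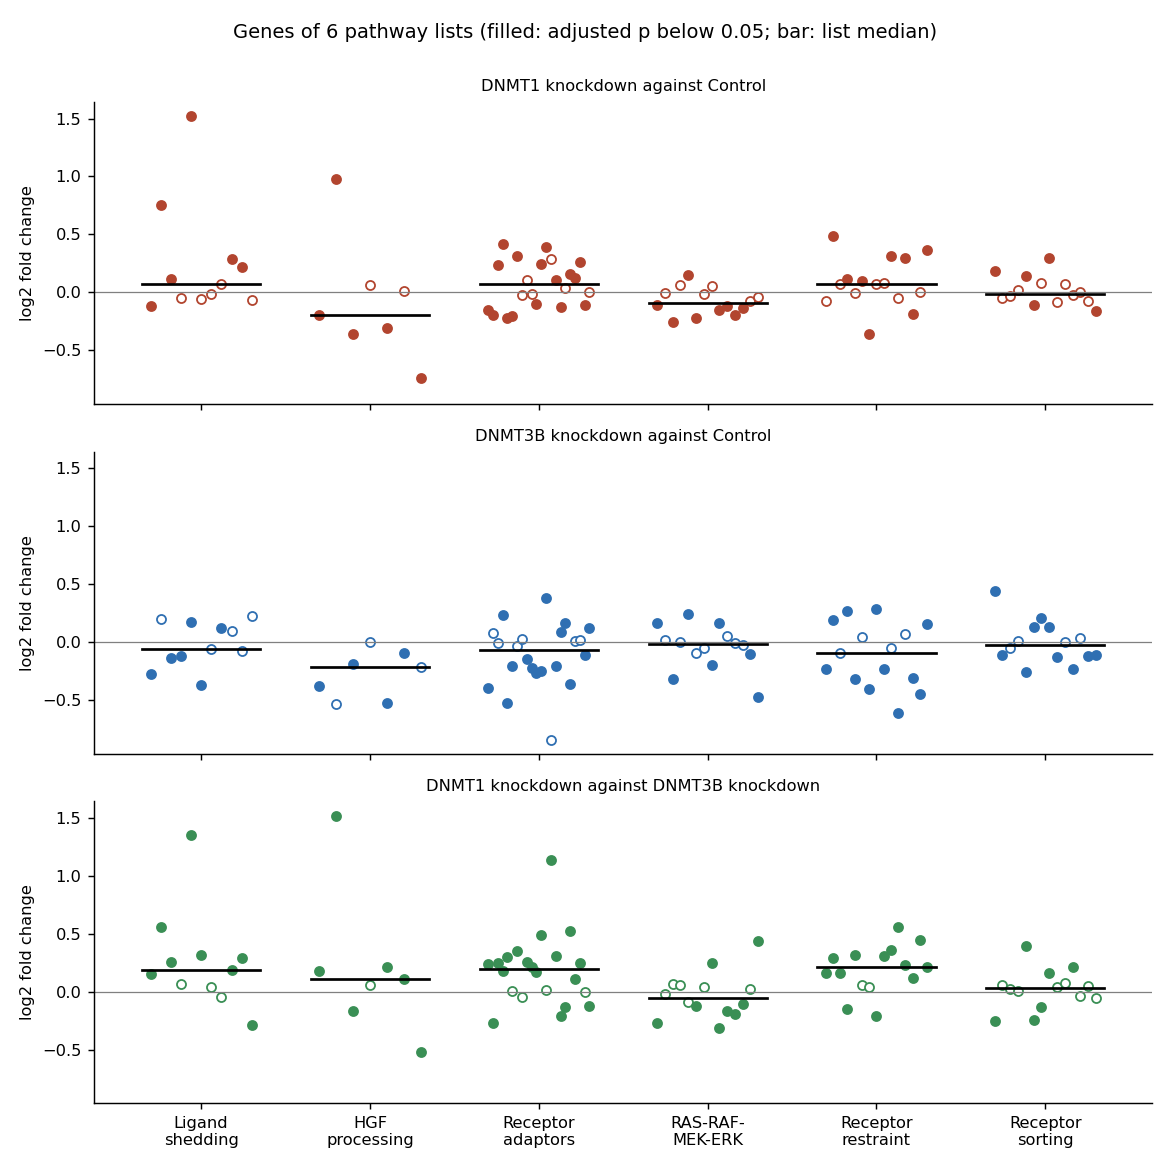
Log2 fold change (vertical axis) of every tested gene in 6 pathway lists, in the 3 comparisons; filled points passed the threshold and bars are list medians. ADAM19 stands highest in the shedding list with DNMT1 knockdown, at 1.53, and the adaptor and restraint medians between the knockdowns are 0.20 and 0.21.

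The gene whose log2 level followed each member most closely over the 9 libraries, among tested genes averaging 5 CPM or more, is given as a description, since the libraries fall into 3 groups. These were ITGB8 for EGFR (Pearson r = 0.998), GNAI2 for ERBB2 (0.999), PELI3 for ERBB3 (0.992), SH3RF2 for MET (0.999), PLK2 for AREG (0.999), GOT1 for EREG (0.991), NLE1 for TGFA (0.978), TMEM135 for HBEGF (0.97) and PARS2 for BTC (0.952). SH3RF2 averaged 27.1 ± 1.01 CPM with DNMT1 knockdown, 30.4 ± 1.81 CPM with DNMT3B knockdown and 13.1 ± 0.405 CPM in Control. PLK2, a polo-like kinase gene, averaged 57.2 ± 1.96, 97.8 ± 1.92 and 43.6 ± 1.62 CPM, and ITGB8, an integrin gene, 21.1 ± 0.304, 8.50 ± 0.0441 and 15.8 ± 0.379 CPM, in the same order of groups. Among the members, EREG followed TGFA (0.90) and HBEGF (0.89) more closely than its neighbour AREG (0.32), and ran opposite to ERBB2 (-0.98), as Pearson r over the same 9 libraries.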

How the data were processed

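The authors deposited raw counts of reads for each gene symbol, as 1 table with a column for each of the 9 libraries. The submitters' processing notes name STAR, featureCounts, DESeq2 and GRCh38 (hg38); tool versions, annotation and strand use were not given in the sources used here. Per the labels, rRNA was depleted before library preparation. Library totals set the precision, and counting intervals cover counting error only, since no molecular identifiers are recorded.

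Counts were tested with edgeR 4.0.16 (R 4.3.3; filterByExpr by group, TMM, quasi-likelihood), with all 9 libraries in 1 fit and Benjamini-Hochberg adjustment over 16660 genes. Ratios were compared by exact permutation. Alternatives were DESeq2 1.42.0, limma-voom 3.58.1, other scalings and filters, only the groups compared, a replicate block and leaving out each library. Scripts were tested on simulated data. A first limit on false calls, set for every tool on 1 simulated draw, was missed, and was replaced by a limit on edgeR's share of false calls averaged over 5 draws, which was met. Gene positions and lengths came from GENCODE v29 on GRCh38, promoter sequences from RefSeq on GRCh38.p14. Named are the 10 genes, the 3 methyltransferases, the further family members, up to 3 called genes per list and comparison with the smallest adjusted p, 3 tested neighbours on each side of the chromosome 4 cluster and the closest-following genes, except a few that are not reported here; ADAM17, BRAF, overlapping genes and ratios were added after values were seen. The members and lists were chosen with earlier results of these data known.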

Additional observations from a re-analysis of the deposited data

How the results depend on the processing

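No called value of the 9 tested genes changed direction under the 17 alternatives run, and 455 of 459 recomputed values stayed on the same side of the threshold. The exceptions were BTC with DNMT1 knockdown (log2 fold change 0.33 with DESeq2, 0.27 without DNMT1 knockdown replicate 1 and 0.31 without Control replicate 1, none called) and EREG with DNMT3B knockdown (0.10 without DNMT3B knockdown replicate 1, called); the cause was not tested. All 917 recomputed values of the named list genes kept their side. Leaving out 1 library gave 5737 to 7111 genes called with DNMT1 knockdown, 7032 to 8079 with DNMT3B knockdown and 6658 to 7602 between the knockdowns. With longest-transcript lengths the Control levels became 103 CPM per kb for EREG, 42.2 for AREG, 29.8 for ERBB2, 27.9 for MET, 22.2 for EGFR, 12.5 for ERBB3, 10.8 for TGFA and 3.54 for HBEGF, because that length is shorter. The libraries showed no sign of pairing by replicate number. The correlation of deviations ran from -0.0944 to 0.0865 between same-numbered libraries and from -0.0870 to 0.0999 between others. Not every library correlated best with its own number. These correlations span all tested genes, so pairing that touches few genes could be missed. With the replicate number as a block 6796, 7789 and 7379 genes and 8, 4 and 8 of the 9 tested genes were called with DNMT1 knockdown, with DNMT3B knockdown and between the knockdowns. Depth limits NRG1, ERBB4, HGF and NRG3, for which differences could not be resolved or rest on few counts.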
